A study of Mus musculus with 4 samples.

Results

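The genes Cxcr4, Myh9, Arsi, Cd79b, Cep41, Fam222a, Gadd45g, Gramd4 and Lrig1 were selected on the number of accessible regions near them that were found in WT embryoid bodies (EBs) and were missing from CTCF-K20R EBs. The peaks of 4 ATAC-seq lists were joined into regions wherever 1 bp or more was shared. A region was called WT-restricted when both WT lists and neither CTCF-K20R list held a peak in it, K20R-restricted in the opposite case, and common when all 4 lists held a peak. Of 80380 regions in all, 132 lay within 50 kb of the transcription start site (TSS) of 1 of the 9 genes, and 47 of these were WT-restricted. Cxcr4 and Myh9 had 6 WT-restricted regions each and the other 7 genes had 5 each. Of 21911 protein-coding genes, 27 (0.123%) had 5 or more, among them these 9, while 84 genes had 4 and 14746 had 0. Because this count chose the genes, every difference between the genotypes at these loci is described without a test.

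EBs are aggregates of differentiating embryonic stem cells, and ATAC-seq uses a transposase that cuts accessible chromatin and marks it for sequencing. To investigate how a point mutation of CTCF affects chromatin accessibility, mouse embryonic stem cells of the line E14Tg2A were differentiated by hanging drops without leukemia inhibitory factor, and EBs were collected on day 4. The 2 WT libraries were set against 2 libraries of CTCF-K20R cells, whose CTCF carries arginine in place of lysine 20 after CRISPR/Cas9 editing. The study describes its mutant cells as clones, and the labels do not say from which clone a library came, so a difference between clones and an effect of the mutation cannot be told apart.

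CTCF is a zinc finger protein that binds insulators and holds the ends of chromatin loops, through which promoters can meet distant enhancers. Developmental genes are often served by several enhancers spread over a long distance, and enhancers in use are accessible to transposase. The genes belong to different families. Cxcr4 encodes the receptor of the chemokine CXCL12 and guides migrating cells, and Myh9 encodes the heavy chain of non-muscle myosin IIA, which drives contraction of the cell cortex. Lrig1 encodes a transmembrane protein that restrains growth factor receptors, Gadd45g a stress-induced growth arrest protein, and Cep41 a centrosomal protein needed for modification of tubulin in cilia. Cd79b encodes a signalling chain of the B cell receptor, Arsi a sulfatase, and Gramd4 a protein with a GRAM domain.

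There were 59783 and 66703 peaks in the WT lists against 51823 and 55832 in the CTCF-K20R lists. Read totals were not used here. Instead, the number of reads piled up at each summit was recovered from the deposited fold and p, and the lowest pileups that were called were 7 and 7 reads in WT against 8 and 8 in CTCF-K20R. Of the peak numbers assigned by the peak caller, between 50.5% and 60.8% were present in a list, so a missing peak may have been called and then taken out. The promoters of T and Mesp1, of early mesoderm, Pou5f1, of pluripotent cells, and Sox17, of endoderm, had a peak in all 4 lists (4 of 4 genes checked). The percentile of the T promoter peak, where 100 is the strongest peak of a list, was 83.2 and 82.8 in WT against 66.7 and 65.6 in CTCF-K20R. That of Mesp1 was 43.5 and 43.4 in WT against 67.3 and 72.4 in CTCF-K20R. That of Pou5f1 was 77.9 and 79.3 in WT against 84.9 and 87.7 in CTCF-K20R, and that of Sox17 was 51.8 and 31.7 against 1.77 and 28.4. Both CTCF-K20R values were below both WT values for T and Sox17 and above them for Mesp1 and Pou5f1, and the part of these markers in the results was not tested. Fewer cells with an accessible region and less access in each cell cannot be told apart in such bulk libraries.

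The DNA under the summits of the regions called in WT EBs alone is shown before their values. The windows reaching 100 bp to either side of the summit of the strongest WT-restricted region of each gene but Arsi are given on the plus strand of mm10, read from the GRCm38 reference. Capitals mark matches to any of 11 short motifs searched on both strands. These were the CTCF consensus, T-box TCACACC, the GATA-factor letters AGATAA, TCF-LEF ATCAAAG, AP-1 TGANTCA, SOX AACAATG, forkhead TGTTTAC, E-box CAGCTG, TEAD GGAATG, OCT ATGCAAAT and GC box GGGCGG. A match is a description of letters and not a binding site.
Cd79b, 23.8 kb upstream (chr11:106338483-106338683): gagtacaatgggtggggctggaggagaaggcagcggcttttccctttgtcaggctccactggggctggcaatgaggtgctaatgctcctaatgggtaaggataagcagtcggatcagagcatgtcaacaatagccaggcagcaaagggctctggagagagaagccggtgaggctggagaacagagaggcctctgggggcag
Cep41, 17.8 kb upstream (chr6:30711434-30711634): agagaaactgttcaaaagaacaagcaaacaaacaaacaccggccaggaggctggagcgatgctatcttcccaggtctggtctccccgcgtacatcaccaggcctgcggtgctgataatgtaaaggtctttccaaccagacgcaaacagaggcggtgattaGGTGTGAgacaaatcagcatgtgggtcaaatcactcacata
Cxcr4, 30.6 kb downstream (chr1:128561621-128561821): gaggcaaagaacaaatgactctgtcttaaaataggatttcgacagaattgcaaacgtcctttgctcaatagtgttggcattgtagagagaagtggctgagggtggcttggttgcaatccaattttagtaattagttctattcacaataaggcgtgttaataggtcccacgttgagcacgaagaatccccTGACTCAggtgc
Fam222a, 9.7 kb upstream (chr5:114558181-114558381): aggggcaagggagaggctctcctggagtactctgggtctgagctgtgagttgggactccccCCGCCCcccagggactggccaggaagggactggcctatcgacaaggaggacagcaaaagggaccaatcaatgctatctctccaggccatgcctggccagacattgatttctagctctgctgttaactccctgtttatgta
Gadd45g, 12.9 kb upstream (chr13:51833667-51833867): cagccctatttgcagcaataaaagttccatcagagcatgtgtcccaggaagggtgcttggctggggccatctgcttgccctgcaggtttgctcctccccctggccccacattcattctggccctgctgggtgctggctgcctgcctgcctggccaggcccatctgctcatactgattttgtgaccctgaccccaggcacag
Gramd4, 44.5 kb upstream (chr15:86013090-86013290): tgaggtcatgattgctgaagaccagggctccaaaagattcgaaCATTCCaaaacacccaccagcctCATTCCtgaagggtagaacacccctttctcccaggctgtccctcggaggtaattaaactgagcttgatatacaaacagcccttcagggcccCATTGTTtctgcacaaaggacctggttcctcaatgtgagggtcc
Lrig1, 29.2 kb upstream (chr6:94729262-94729462): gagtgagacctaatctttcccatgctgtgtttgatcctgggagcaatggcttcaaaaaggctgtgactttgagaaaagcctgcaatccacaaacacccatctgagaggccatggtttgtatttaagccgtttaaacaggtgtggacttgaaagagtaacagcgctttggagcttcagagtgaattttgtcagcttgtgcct
Myh9, 5.9 kb downstream (chr15:77836199-77836399): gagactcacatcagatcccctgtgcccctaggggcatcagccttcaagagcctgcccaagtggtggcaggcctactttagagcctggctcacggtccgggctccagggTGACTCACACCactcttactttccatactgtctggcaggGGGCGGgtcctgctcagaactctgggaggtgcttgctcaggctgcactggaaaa

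These windows differed in content. The windows of Lrig1, Cd79b and Gadd45g held no match. The Cep41 window held a T-box match, the Cxcr4 window an AP-1 match, and the Gramd4 window a SOX and 2 TEAD matches. The Fam222a window held a GC box in sequence masked as a repeat in the reference. The Myh9 window held an AP-1 and a T-box match that share 3 bases, with a GC box further along. The strongest Arsi region, in an intron of Camk2a, held no match. Among all 47 WT-restricted regions near the 9 genes, 21 held none of the 11 motifs.

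T-box factors such as T and Eomes direct early mesoderm. Of the 11 motifs, T-box letters had the largest excess over their share in all regions, and they were singled out after the values were seen. They were found in 6 of the 47 summit windows (12.8%), against 7.54% of the 8341 WT-restricted regions of the whole genome and 3.88% of all 80380 regions. Besides the Cep41 and Myh9 windows above and a region 3.1 kb downstream of the Arsi TSS, matches lay in 2 regions near Gadd45g and in an intron of Myh9. The CTCF consensus was found in 1 window (2.13%), in an intron of Scn4a 15.1 kb upstream of Cd79b, against 2.58% of all WT-restricted regions and 5.97% of all regions. The 41 bp around the matches of the regions near Gadd45g, in the Myh9 intron and in Scn4a are shown because these regions are not among the windows above.
Cd79b, 15.1 kb upstream (chr11:106329898-106329938): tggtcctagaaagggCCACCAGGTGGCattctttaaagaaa
Gadd45g, 30.7 kb upstream (chr13:51815983-51816023): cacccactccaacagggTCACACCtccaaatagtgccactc
Gadd45g, 30.7 kb upstream (chr13:51816031-51816071): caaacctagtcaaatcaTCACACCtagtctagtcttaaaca
Gadd45g, 5.4 kb downstream (chr13:51852057-51852097): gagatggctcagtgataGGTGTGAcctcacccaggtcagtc
Myh9, 40.9 kb downstream (chr15:77801356-77801396): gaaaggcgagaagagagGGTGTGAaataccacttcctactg

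The T-box match at Gadd45g that starts at base 51816000 of chromosome 13 lay in a masked repeat, and the other match of this region did not. GATA letters were in 3 of the 47 windows (6.38%), below the 14.5% of all WT-restricted regions, and E-box letters in 6 (12.8% against 20.4%). TEAD letters were in 2 (4.26% against 13.9%), and GC boxes in 6 (12.8% against 6.43%). Over all regions the shares were 7.81% for GATA, 16.15% for E-box, 12.03% for TEAD and 20.03% for GC boxes. The GC box share of the 47 windows thus lay above that of all WT-restricted regions and below that of all regions. A single match is 2.13% of the windows, and regions of a locus are neighbours and not replicates. The median GC content of the 47 windows was 53.2%, against 50.8% in all WT-restricted regions and 53.2% in all regions.

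**Figure D1:**
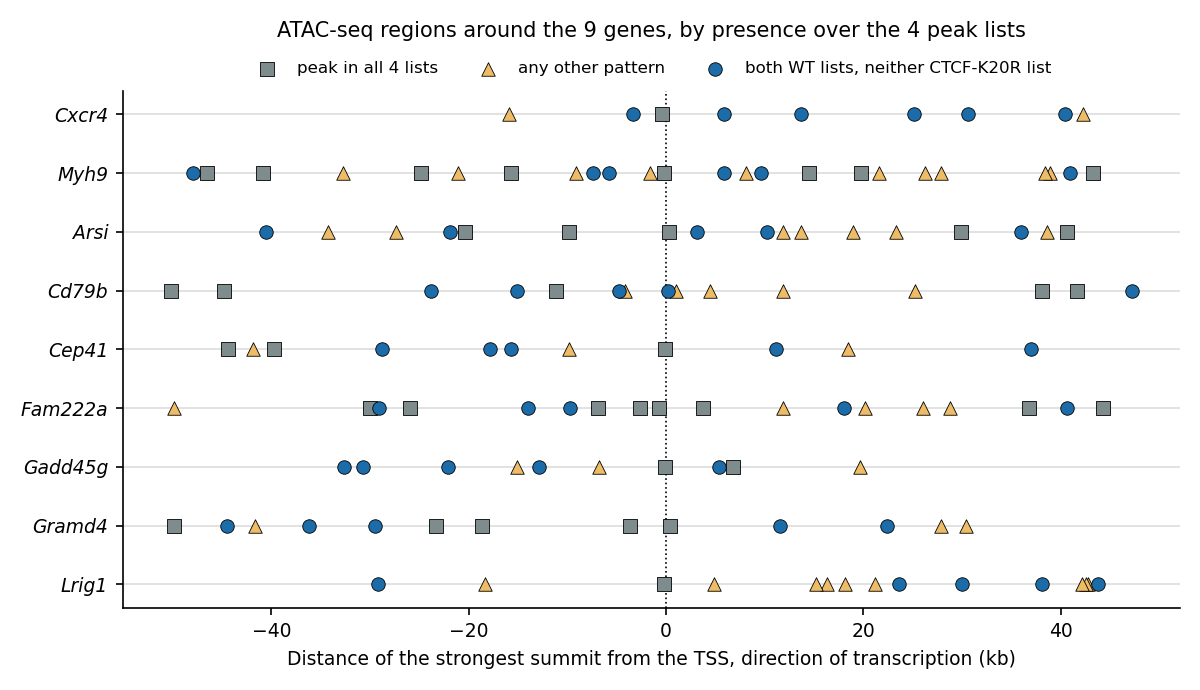
Each symbol is a region with a peak in at least 1 of the 4 lists, placed by the distance (kb) of its strongest summit from the TSS of the gene in the row, with positive values downstream. Circles are the 47 WT-restricted regions, squares the 38 common regions and triangles the 47 regions of any other pattern, and squares sit at the TSS of every gene but Cd79b.

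The regions were counted by pattern. Of the 132 regions, 47 were WT-restricted (35.6%, Wilson 95% interval 28.0 to 44.1, counting error only), against 10.4% of all regions, a share that the choice of genes fixed to be high. K20R-restricted regions numbered 0 of 132, which allows a share of up to 2.27% (3 counts of the total, counting error only). Of all regions 3.1% were, and nothing is read from this, since the loci were chosen for their WT-restricted regions and neighbouring regions are not independent. Leaving out WT replicate 2 or either CTCF-K20R library gave 6, and leaving out WT replicate 1 gave 1. Common regions made up 38 (28.8%), against 47.9% of all regions. The other 47 regions had a peak in 1 or 3 lists or in a single list of each genotype, and the most frequent of these patterns was a peak in WT replicate 2 alone, with 16 regions. No region lay in the windows of more than 1 of the 9 genes.

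In the WT libraries the share of regions with a peak was near or above that over the genome, and in the CTCF-K20R libraries it was below, as the choice of genes implies. Of the 132 regions, 98 (74.2%) had a peak in WT replicate 1 and 115 (87.1%) in WT replicate 2, while of all regions 72.5% and 81.3% did. In CTCF-K20R, 50 (37.9%) and 59 (44.7%) had a peak, against 62.6% and 68.5% of all regions. As a ratio the contrast was widest at Cxcr4, with 7 and 9 regions in WT against 1 and 1 in CTCF-K20R. At Lrig1 the CTCF-K20R libraries differed from each other, with 1 and 7 regions against 10 and 12 in WT. At every gene both CTCF-K20R counts were below both WT counts, which the choice of genes favours.

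**Figure D2:**
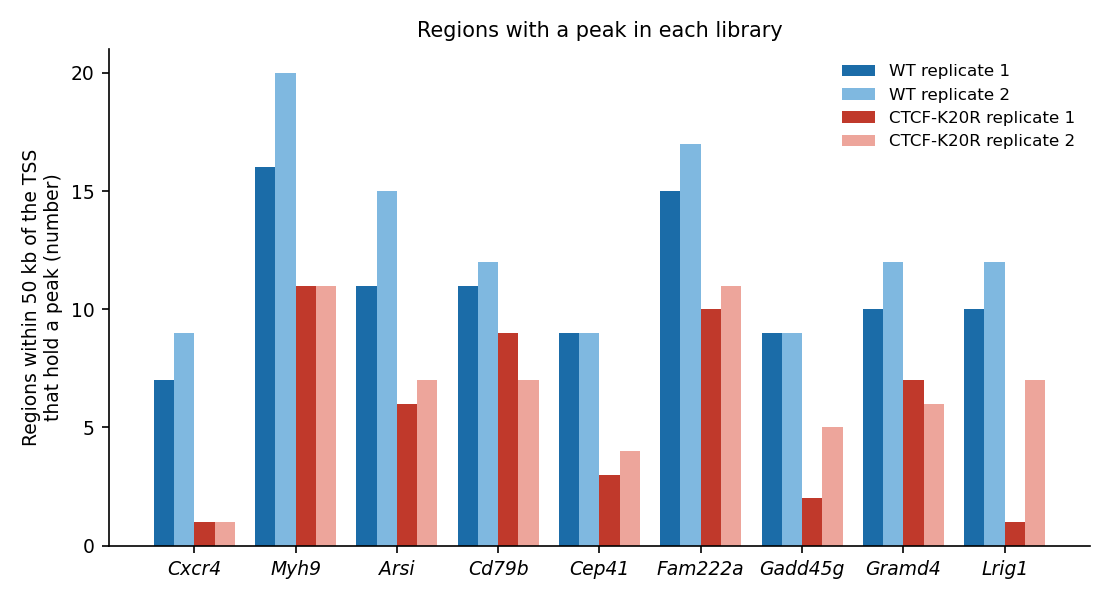
Bars give the number of regions within 50 kb of each TSS that hold a peak in each of the 4 libraries. Cxcr4 has 7 and 9 in WT against 1 and 1 in CTCF-K20R, and both CTCF-K20R bars are below both WT bars at all 9 genes.

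The WT-restricted regions were mostly of modest strength, as such regions were over the genome. The median of their mean WT percentile was 28.7, against 30.0 in all 8341 WT-restricted regions, so this is no trait of the 9 loci. Their summit pileup was 9 to 113 reads in WT replicate 1, with a median of 20, and 10 to 134 in WT replicate 2, with a median of 30. The median percentile within the list was 27.5 and 37.2. Both WT percentiles were above 50 in 8 of the 47 regions. In WT replicate 2 the pileup was the higher in 41 of the 47. The median common region of the genome also had more reads in WT replicate 2, with 56 against 38, so nothing is read from this count. The level below which 5% of the peaks lay was 10 reads in CTCF-K20R replicate 1 and 11 in replicate 2, and both WT pileups exceeded 11 in 39 of the 47 regions and reached 22 in 21. When a −log10 q of 10 or more was required of every peak, 10 WT-restricted and 3 K20R-restricted regions were counted, and Myh9 and Gadd45g had 0 of the former.

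**Figure D3:**
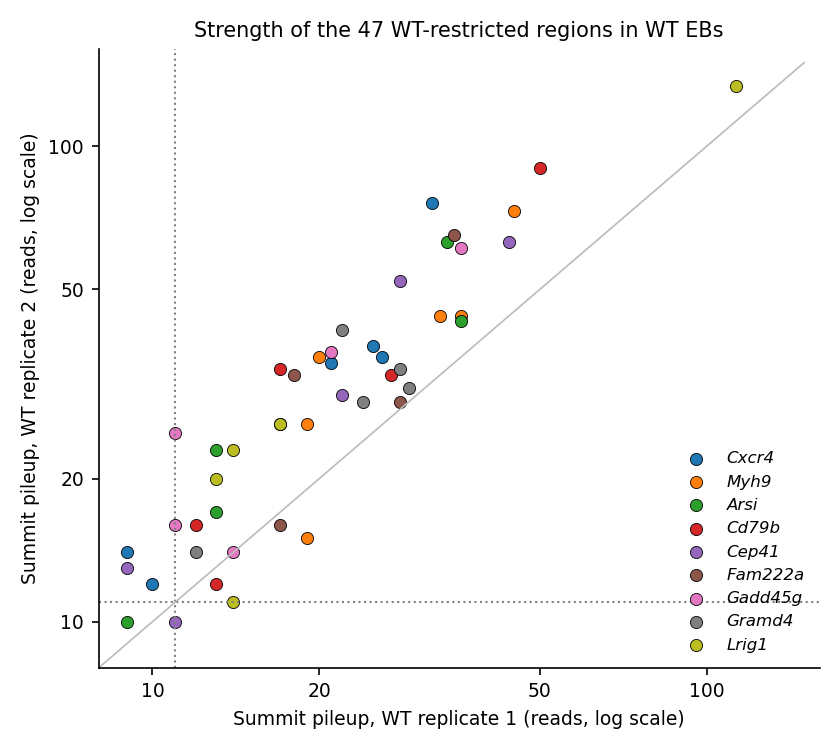
Each point is 1 of the 47 WT-restricted regions, coloured by gene, with the number of reads piled up at its summit in WT replicate 1 (x axis, log scale) and WT replicate 2 (y axis, log scale). The grey line marks equal pileups, the dotted lines mark 11 reads, the level below which 5% of the peaks of CTCF-K20R replicate 2 lay, and the point at 113 and 134 reads is the region 29.2 kb upstream of Lrig1.

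Most of the 47 regions were distal. By summit, 24 lay in intergenic sequence, 20 in introns, 2 at promoters and 1 in an exon. They were spread evenly around the TSS, with 23 upstream and 24 downstream, and 11 were within 10 kb and 21 beyond 25 kb. The member was the gene with the nearest TSS for 32, and 15 lay inside the member itself. Repeats covered most of the summit window in 2 of the 47 (4.3%), against 2.7% of all WT-restricted regions and 5.4% of all regions. Their median width was 573 bp, against 1113 bp for the 38 common regions at the same loci. Over the genome these medians were 613 bp for WT-restricted and 1100 bp for common regions. Of all WT-restricted regions, 43.74% were intergenic, 50.55% in introns and 3.31% at promoters.

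At Cxcr4, on chromosome 1, the promoter kept its peak in all 4 lists while the flanking regions were absent from the CTCF-K20R lists. The only common region was the promoter, at percentiles of 78.6 and 74.3 in WT against 75.4 and 75.6 in CTCF-K20R, with overlap between the genotypes. Downstream of it, neither CTCF-K20R list held a peak over 117.8 kb, a stretch with 5 WT-restricted regions. WT replicates 1 and 2 had 5 and 7 peaks that touched this stretch. Those of WT replicate 2 include its promoter peak, the edge of which reached into the stretch. The strongest of the 5 WT-restricted regions, chr1:128560427-128562084, was intergenic and 30.6 kb downstream. It had summit pileups of 32 and 76 reads in WT and percentiles of 62.5 and 80.4. The next, 13.7 kb downstream, had percentiles of 63.3 and 65.3. In CTCF-K20R replicate 1 no peak number was missing over this stretch, and in replicate 2 a single number was, so at most 1 of the 5 regions can have lost a called peak there. The Cxcr4 TSS was the nearest to all 6 WT-restricted regions.

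At Myh9, on chromosome 15, most regions called in all 4 lists were also lower in CTCF-K20R. Levels of common regions are given as the log2 of the summit pileup relative to the median common region of the same library. Of its 8 common regions, 6 were lower in both CTCF-K20R libraries than in both WT libraries, 0 were higher and 2 overlapped. Over all 38527 common regions, 23.5% were lower in both CTCF-K20R libraries and 35.5% higher. The intergenic region 40.9 kb upstream was at 1.33 and 1.23 in WT against -0.19 and -0.05 in CTCF-K20R. An intronic region 19.8 kb downstream was at 0.84 and 0.96 in WT against -0.51 and -0.49 in CTCF-K20R. The region 15.7 kb upstream, among the strongest of the WT lists at percentiles of 99.1 and 99.5, was at 93.4 and 89.8 in CTCF-K20R.

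The Myh9 promoter showed the same order, with percentiles of 99.4 and 99.1 in WT against 96.4 and 95.9 in CTCF-K20R. Its 6 WT-restricted regions were of middle or low rank. The strongest, in an intron 5.9 kb downstream at chr15:77836035-77836505, had pileups of 45 and 73 reads and percentiles of 46.5 and 59.4. No peak number was missing from either CTCF-K20R list at any of the 6. The RefSeq promoter of Myh9 (GRCm38.p6, minus strand), 300 bp long and around its start, is shown because its peak ranked lower in both CTCF-K20R libraries, with GC box matches in capitals.
Myh9 promoter (chr15:77842126-77842425): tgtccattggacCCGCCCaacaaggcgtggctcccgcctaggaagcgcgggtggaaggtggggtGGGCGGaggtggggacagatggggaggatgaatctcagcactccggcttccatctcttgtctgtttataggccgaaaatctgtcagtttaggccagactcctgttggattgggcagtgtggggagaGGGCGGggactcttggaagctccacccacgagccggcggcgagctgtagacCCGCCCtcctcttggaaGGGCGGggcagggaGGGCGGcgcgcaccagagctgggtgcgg

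This promoter held 6 GC box matches, and 35.9% of 32544 RefSeq promoters of this length held at least 1. Of the 9 genes, 7 were matched to a RefSeq promoter, and Arsi and Cd79b were not.

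**Figure D4:**
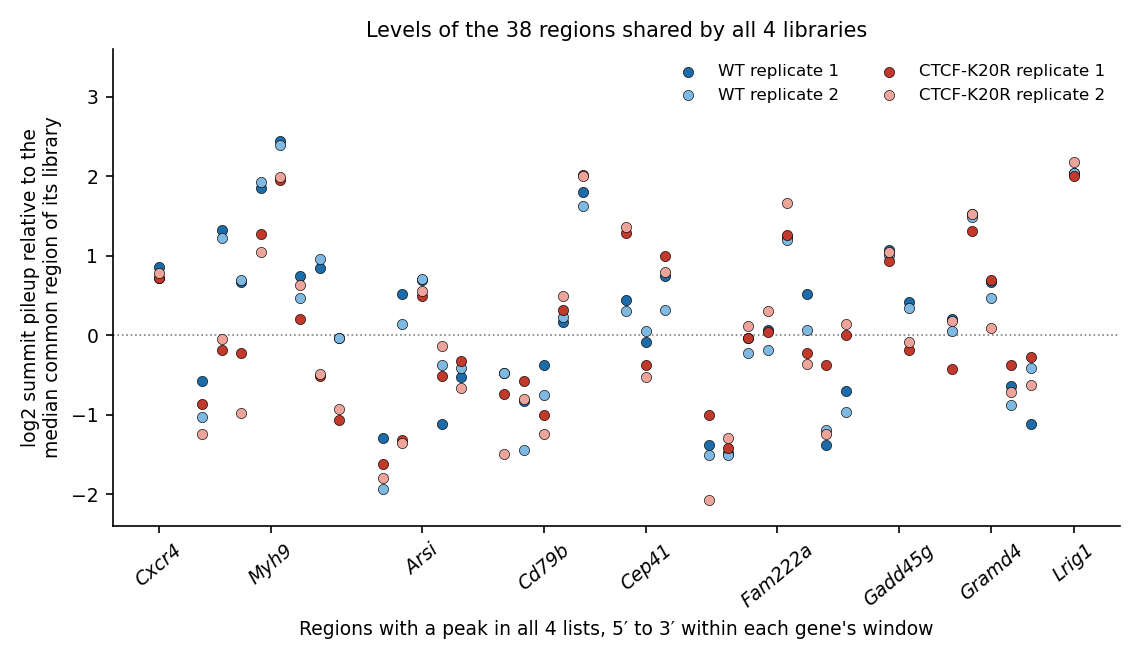
Each column of points is 1 of the 38 common regions, grouped by gene, and the y axis is the log2 of its summit pileup relative to the median common region of the same library. At Myh9 the CTCF-K20R points lie below the WT points in 6 of 8 regions, while the single common regions of Cxcr4 and Lrig1 overlap.

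Lrig1, on chromosome 6, held the strongest WT-restricted region of the 9 loci. It lay in intergenic sequence 29.2 kb upstream at chr6:94728679-94730190, with summit pileups of 113 and 134 reads, folds of 12.6 and 12.8 over the local background and percentiles of 97.3 and 93.6. No peak number was missing from the list of CTCF-K20R replicate 1 at this place and 1 was from that of replicate 2. The other 4 WT-restricted regions were in Lrig1 introns between 23.6 and 43.8 kb downstream, and their pileups were between 11 and 26 reads. The promoter ranked at percentiles of 99.3 and 98.9 in WT against 98.1 and 98.7 in CTCF-K20R, an order that turned into overlap when promoter peaks were ranked among themselves. At 3 further intronic regions there was a peak in CTCF-K20R replicate 2 and both WT libraries and none in CTCF-K20R replicate 1.

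Cep41, also on chromosome 6, shares its window with Mest, an imprinted gene expressed in mesoderm. All 3 WT-restricted regions between the 2 genes lay in 38.6 kb without a peak in either CTCF-K20R list, and no number was missing there. The strongest, chr6:30710831-30711899, was 17.8 kb upstream of Cep41, with pileups of 44 and 63 reads and percentiles of 75.1 and 75.0. A further one, with percentiles of 58.9 and 67.0, was 968 bp from the annotated 5′ end of Mest. That end is not the start of a coding transcript, and the region counted as intergenic. The Cep41 promoter overlapped between the genotypes in percentile, with 87.6 and 80.0 in WT against 89.1 and 84.5 in CTCF-K20R. A common region at the start of a coding transcript within Mest, 44.4 kb upstream of Cep41, went the other way. It was at 0.44 and 0.30 in WT against 1.29 and 1.36 in CTCF-K20R on the relative log2 scale.

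At Gadd45g, on chromosome 13, 4 of the 5 WT-restricted regions were upstream, and 3 of them lay in 36.8 kb without a CTCF-K20R peak. The strongest, chr13:51833474-51834187, was intergenic and 12.9 kb upstream, with pileups of 21 and 37 reads. The region 5.4 kb downstream was higher in pileup, at 36 and 61 reads, and lower in mean percentile. The common region next to it, 6.8 kb downstream, was at 0.42 and 0.34 in WT against -0.19 and -0.08 in CTCF-K20R. The promoter ranked lower in CTCF-K20R, at 73.7 and 77.2 against 81.1 and 81.8 in WT, and overlapped on the relative log2 scale. In CTCF-K20R replicate 1 a single peak number was missing over the stretch with 4 of the 5 regions. In replicate 2 a single number was missing over the stretch with 3 of them. At most 1 region in each list can therefore have lost a called peak.

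At Cd79b, on chromosome 11, the TSS itself lay in a WT-restricted region, of low rank at percentiles of 7.80 and 25.4. CTCF-K20R replicate 1 had a separate weak peak 1.0 kb downstream at percentile 12.4, and replicate 2 had none within 1 kb of the TSS. The strongest WT-restricted region, chr11:106338090-106339040, was in an intron of the muscle sodium channel gene Scn4a, 23.8 kb upstream, with pileups of 50 and 90 reads and percentiles of 77.2 and 86.0. Here 3 and 1 peak numbers were missing from the CTCF-K20R lists. When a −log10 q of 5 or more was required, 1 WT-restricted region was counted at this gene. Of the 5 common regions, 3 were higher in both CTCF-K20R libraries and 2 lower, against 35.5% and 23.5% of all common regions. Smarcd2, a chromatin remodeller subunit gene 41.8 kb downstream, had a promoter peak at 96.2 and 94.2 in WT against 97.5 and 96.6 in CTCF-K20R.

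At Arsi, on chromosome 18, the common region with the largest difference between the genotypes was found. The region 9.8 kb upstream was at 0.52 and 0.14 in WT against -1.32 and -1.36 in CTCF-K20R, with pileups of 55 and 62 against 15 and 22 reads. The Arsi promoter ranked at 76.2 and 77.1 in WT against 73.5 and 77.7 in CTCF-K20R, with overlap. The strongest WT-restricted region, with pileups of 36 and 43 reads, was 36.0 kb downstream in an intron of Camk2a, which encodes a calcium-dependent protein kinase. The weakest, 10.2 kb downstream, had pileups of 9 and 10 reads, near the lowest pileups called in CTCF-K20R.

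At Fam222a, on chromosome 5, common regions were higher in both CTCF-K20R libraries at 4 of 8 and lower at 1. Over all common regions 35.5% were higher and 23.5% lower, so nothing is read from these counts. An exonic region 44.3 kb downstream, with the CTCF consensus in its window, was at -0.70 and -0.97 in WT against 0.00 and 0.14 in CTCF-K20R. The strongest WT-restricted region, chr5:114558136-114558656, was intergenic and 9.7 kb upstream, with pileups of 35 and 65 reads. It lay in 18.2 kb without a peak in either CTCF-K20R list and with no missing number. The promoter overlapped between genotypes in percentile, at 83.8 and 85.0 in WT against 82.6 and 90.6 in CTCF-K20R. On the relative log2 scale it is 1 of the 4 higher regions, with a mean difference of 0.25.

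At Gramd4, on chromosome 15, 3 of the 5 WT-restricted regions were in introns of the neighbouring gene Celsr1, a cadherin of planar cell polarity, and 2 in introns of Gramd4. The strongest, chr15:86012925-86013749, was 44.5 kb upstream with pileups of 22 and 41 reads. All 5 common regions overlapped between the genotypes, as did 15806 of all 38527 common regions. The Gramd4 promoter was weak and variable, at 14.5 and 53.4 in WT against 45.4 and 35.8 in CTCF-K20R.

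The promoters of all members but Cd79b had a peak in every library, as did those of 13899 of 21911 protein-coding genes. Of the 8 genes with a promoter peak in all 4 lists, 3 (Myh9, Gadd45g and Lrig1) ranked lower in both CTCF-K20R libraries than in both WT libraries, 0 ranked higher and 5 overlapped. Among 13899 genes with such peaks, 32.0% ranked lower and 16.0% higher. The share of the 8 genes is close to this background and is no result about them. When the promoter peaks of these genes were ranked among themselves, 2 were lower, 1 (Fam222a) was higher and 5 overlapped, against backgrounds of 23.1% lower and 23.8% higher. On the relative log2 pileup scale 2 (Myh9 and Arsi) were lower, 2 (Cep41 and Fam222a) were higher and 4 overlapped, Gadd45g and Lrig1 among them, and of all common regions at promoters 14.6% were lower and 40.3% higher. Myh9 was the only member lower on all 3 scales.

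**Figure D5:**
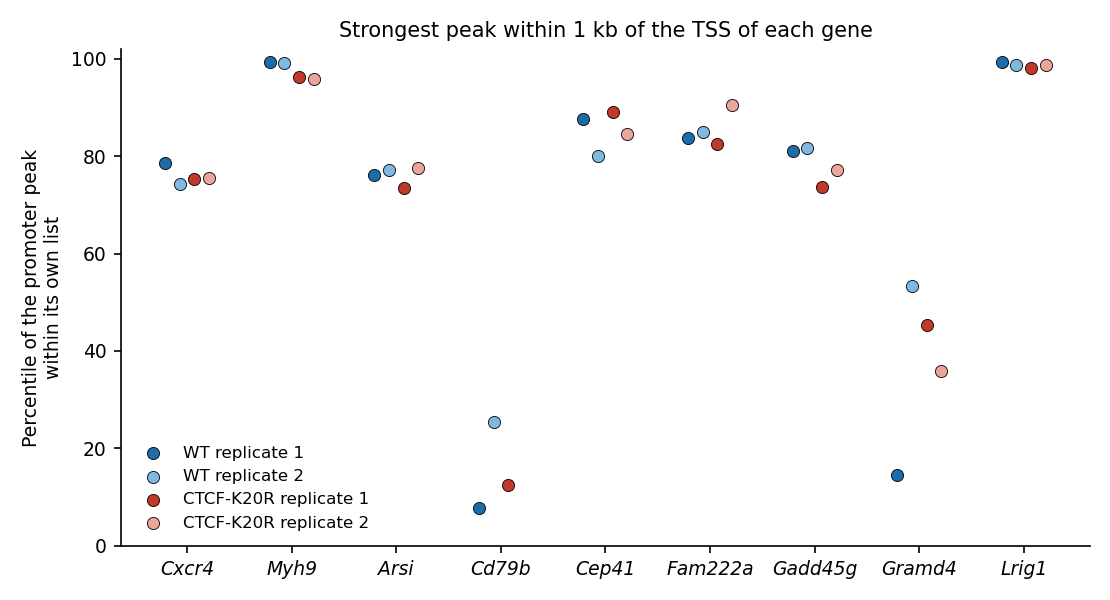
Points give the percentile (100 is the strongest peak) of the strongest peak within 1 kb of the TSS in each library. Myh9, Gadd45g and Lrig1 have both CTCF-K20R points below both WT points, Cd79b has no promoter peak in CTCF-K20R replicate 2, and at the other 5 genes the genotypes overlap.

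Over all 38 common regions near the 9 genes, 13 were lower in both CTCF-K20R libraries, 9 were higher and 16 overlapped. The median difference between CTCF-K20R and WT was -0.10 on the relative log2 scale, against 0.08 over all common regions. Of the 13 lower regions 6 were at Myh9. Away from promoters, 9 of 24 were lower and 4 higher, with a median of -0.18, against 28.5% lower, 32.8% higher and a median of 0.04 over all such regions. At promoters of any gene, 4 of 14 were lower and 5 higher, with a median of 0.00, against 14.6% lower, 40.3% higher and a median of 0.11. These levels come from the same contrast that chose the genes and add no independent evidence.

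Related genes were examined to see whether the count went with the gene family. For 18 relatives and partners, among them Ackr3 and Cxcl12 (the other receptor and the ligand of the Cxcr4 system), Myh10, Myh14, Cd79a, Gadd45a, Gadd45b, Lrig2 and Lrig3, 135 regions lay within 50 kb of the TSS. Of these, 10 (7.4%) were WT-restricted and 2 were K20R-restricted, against 10.4% and 3.1% of all regions. The count was 0 at 13 of the 18 genes and at 67.3% of all protein-coding genes, so this count is no result about the relatives. Lrig3, of the same family as Lrig1, had 4 of 7, and Arsg and Cxcr5 had 2 each. Cxcl12 had 1 of 5 and Myh14 1 of 17.

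The genes outside the list with the most similar counts were Celsr1, Mrpl23, Plxnd1, Sema4d and Tpm1, with 6 WT-restricted regions each, among 18 genes outside the list with 5 or more. Those with 5 were tied, and Gh, Gstp1 and Gstp2 are named among them for having the fewest K20R-restricted regions and then by the alphabet. Some of these are neighbours and share regions with the members. Celsr1 starts at base 86033777, upstream of Gramd4 on chromosome 15, and Gh 12.9 kb downstream of Cd79b. In all, 24 of the 27 genes with 5 or more WT-restricted regions had 0 K20R-restricted regions. Such regions were 3.1% of all regions. The share of all genes with 0 was not counted, so nothing is read from this.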

How the data were processed

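Chromatin accessibility was measured by ATAC-seq in EBs on day 4, with 2 WT and 2 CTCF-K20R libraries and a peak list for each. Genotype and replicate number came from the sample titles. According to the methods of the study and the submitters' processing notes, reads were trimmed with Trim Galore, aligned to mm10 with Bowtie2, filtered for mapping quality, duplicates and blacklisted regions, and peaks were called with MACS2. No pooling of replicates is stated. In each list the authors deposited a score (10 times the −log10 p, as a whole number), a ratio (the fold of the summit over local background) and the −log10 p and −log10 q of the summit. The deposited −log10 p was ranked within each list to give percentiles, since folds and p depend on depth. Peaks with a −log10 p from 2 upward are in the lists.

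The members, the related genes, the motifs and the settings were chosen with earlier results of these data known. The TSS was the 5′ end of the gene in the GENCODE vM21 basic annotation, and a region counted for a gene when its nearest base was within 50 kb. Each region was annotated by its strongest summit as promoter (up to 1000 bp from a coding TSS), exon, intron or intergenic. No region ended beyond the chromosome length of the GRCm38 reference. Summit pileups were recovered from fold and p as whole numbers within 0.02. A missing peak number was counted between the deposited peaks on either side of a region. The genes named were the 9 members, the 18 relatives chosen by family, neighbours within 50 kb and 8 other genes with the highest counts (ties by WT-restricted minus K20R-restricted regions, then by name), and for each member its strongest WT-restricted region by mean WT percentile. Other regions were named after their values were seen. No test was run, because every comparison uses the contrast that chose the genes. Merging and pileup recovery were tested on simulated data. Python 3.11.15, pandas 2.3.3, NumPy 2.4.6 and SciPy 1.17.1 were used.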

Additional observations from a re-analysis of the deposited data

How the results depend on the processing

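The count of 47 WT-restricted regions changed by less than 1.5 times when peaks had to share 50% of the shorter peak, were merged across gaps of up to 500 bp, were assigned by summit or by any coding TSS, or were taken within 100 kb. It was 25 with a −log10 q of at least 5, 10 with at least 10, 29 when every list was limited to its 51823 strongest peaks, 28 with only regions without a missing peak number, 27 within 25 kb and 11 within 10 kb. The K20R-restricted count of 0 became 2, 3 and 4 under the first 3 of these and 2 within 100 kb. The WT-restricted share of 35.6% was 16.13% with a −log10 q of at least 10 (all regions, 6.92%). It was 27.1% with equal numbers of peaks (8.04%) and 25.56% within 100 kb (10.38%). Without missing numbers it was 21.21%, and the share over all regions was not recounted. No number was missing at 59.6% of the 47 regions, against 29.0% of all WT-restricted regions. The median WT percentile of 28.73 was 52.34 and 63.63 under the q limits and 49.86 with equal numbers.

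Leaving out 1 library at a time gave between 47 and 63 WT-restricted regions, between 1 and 6 K20R-restricted regions and a WT-restricted share between 36.72% and 49.22%, against 12.61% and 20.76% of all regions under the same 2 settings, with a median percentile between 26.87 and 30.67. The share was 49.22% without WT replicate 1 and 44.83% without WT replicate 2. Without CTCF-K20R replicate 2, Lrig1 had 8 and Fam222a and Gadd45g 7 each, and without WT replicate 1 Myh9 had 11 and Arsi 9. The number of promoters ranked lower in CTCF-K20R was 3 under every setting but ranking among promoters and the relative log2 pileup, a scale added after the data were seen, which gave 2 each. Of 135 per-gene counts under the alternatives, 91 stayed within 1.5 times.

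No test was run here, so none was run with the replicate numbers as pairs. The lists give called peaks only, so access below the calling level could not be seen. The lowest pileups called were 7 or 8 reads, and this level is higher where the local background is higher. A peak 4.9 kb downstream of the Lrig1 TSS had 22 reads in WT replicate 1 at a fold of 1.82 and a −log10 q of 0.91.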

Other observations

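Several neighbours of the 9 genes had their own count of WT-restricted regions within 50 kb of the TSS. Scn4a had 5 of 15 regions, Gh 5 of 14, Camk2a 4 of 17 and Mest 4 of 11, all with 0 K20R-restricted regions, and their windows overlap those of the members. Camk2a had a promoter peak in WT replicate 2 at percentile 16.0 and in both CTCF-K20R libraries at 23.1 and 11.4, and none in WT replicate 1. The Gh promoter had a peak at 37.8 in WT replicate 2 and at 54.1 and 60.0 in CTCF-K20R. Celsr1 ranked lower at its promoter in CTCF-K20R, at 82.0 and 87.6 against 88.7 and 88.3 in WT. On the relative log2 scale the genotypes overlapped there, at 1.31 and 1.52 in CTCF-K20R against 1.53 and 1.49 in WT.

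Among the 18 related genes, promoter peaks were found in all 4 lists for 16, of which 4 ranked lower in both CTCF-K20R libraries, 4 ranked higher and 8 overlapped. Cxcl12, which encodes the ligand of CXCR4, was among the lower ones, at 76.4 and 80.1 in WT and 61.1 and 64.9 in CTCF-K20R. Ackr3, the gene of the scavenging receptor for the same ligand, ranked at 96.8 and 97.4 in WT and 91.9 and 92.5 in CTCF-K20R. Lrig3 was among the higher ones, at 69.7 and 73.4 in WT and 77.7 and 78.9 in CTCF-K20R. Among all genes with such peaks, 32.0% ranked lower and 16.0% higher.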
